A study of Mus musculus with 2 samples.

Results

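The metallothionein genes Mt1, Mt2 and Mt3 were followed across the cell types of the mouse fetal ovary, with and without the glucocorticoid receptor (GR, encoded by Nr3c1). The members were the rows of both count matrices that carry these symbols, 3 of 27998 genes, and each was found once in each matrix. Fetal ovaries at E15.5 were dissociated after removal of the mesonephroi, and germ cells sorted by GFP were mixed with GFP-negative somatic cells at 60 to 40. Each genotype gave 1 library of droplet-based single-cell RNA-seq, in which a molecular tag (UMI) on each captured transcript lets copies of it be counted once. The KO library pooled 2 embryos homozygous for a deletion of Nr3c1 exon 3, made from the floxed strain Nr3c1tm1.1Jda with the β-actin Cre line Tmem163Tg(ACTB-cre)2Mrt. This Cre acts in all cells, so the receptor was deleted in germ and somatic cells alike, and homozygotes die at birth. The WT library pooled 4 embryos of the same kind of heterozygous intercross, and both pools carried the OCT4-GFP transgene Tg(Pou5f1-EGFP)2Mnn, whose fluorescence marks germ cells. With 1 library per genotype no test was run and no p-value is given, and genotype cannot be told apart from differences between the pools, sorts or captures.

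Metallothioneins are small cysteine-rich proteins that bind zinc, copper and cadmium and buffer free metal ions in the cell. Mt1 and Mt2 are expressed in many tissues and are induced by metals through the zinc-sensing factor MTF1, which binds metal response elements in their promoters, and by glucocorticoids through GR. Mt3 was first known from the brain and responds little to metals, and Mt4 is known from stratified squamous epithelium.

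All 4 genes of the family lie on the plus strand of mouse chromosome 8 (GRCm38, GENCODE M21), each with 3 exons in its first listed transcript. Mt4 occupies chr8:94137197-94139031, Mt3 chr8:94152607-94154146, Mt2 chr8:94172664-94173568 and Mt1 chr8:94179082-94180327. The gap between Mt2 and Mt1 spans 5513 bases, that between Mt3 and Mt2 18517 bases, and that between Mt4 and Mt3 13575 bases. The longest run of identical bases shared by annotated transcripts was 20 bases between Mt1 and Mt2 and 27 bases between Mt1 and Mt3. How reads that match several genes were counted is not given in the sources used here.

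The promoters of the 3 members are printed because metals and glucocorticoids act on this family through promoter elements. Each window holds 250 bases before and 50 bases after the RefSeq transcription start on GRCm38.p6, written 5′ to 3′ on the plus strand, and capitals mark matches to the core of the metal response element (TGCACNC or TGCGCNC, either strand). The windows are chr8:94178839-94179138 for Mt1, chr8:94172368-94172667 for Mt2 and chr8:94152357-94152656 for Mt3.
Mt1: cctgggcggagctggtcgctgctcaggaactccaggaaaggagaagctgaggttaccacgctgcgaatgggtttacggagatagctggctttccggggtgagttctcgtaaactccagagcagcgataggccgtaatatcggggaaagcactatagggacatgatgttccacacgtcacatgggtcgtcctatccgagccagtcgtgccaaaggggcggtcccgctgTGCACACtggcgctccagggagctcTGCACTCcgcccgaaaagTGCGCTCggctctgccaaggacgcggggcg
Mt2: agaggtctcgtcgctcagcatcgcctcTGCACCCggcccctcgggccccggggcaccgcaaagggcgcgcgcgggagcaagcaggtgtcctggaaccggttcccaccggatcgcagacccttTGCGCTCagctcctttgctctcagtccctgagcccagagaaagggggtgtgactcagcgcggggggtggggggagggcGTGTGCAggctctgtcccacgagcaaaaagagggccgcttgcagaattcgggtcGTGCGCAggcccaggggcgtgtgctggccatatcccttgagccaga
Mt3: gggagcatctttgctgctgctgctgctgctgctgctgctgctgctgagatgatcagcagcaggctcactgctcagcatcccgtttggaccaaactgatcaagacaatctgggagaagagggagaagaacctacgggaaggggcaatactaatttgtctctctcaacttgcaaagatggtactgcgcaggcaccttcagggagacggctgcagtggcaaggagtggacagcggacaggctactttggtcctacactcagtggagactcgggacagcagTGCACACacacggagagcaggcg
The metal response core was matched 3 times in the Mt1 window, 4 times in the Mt2 window and 1 time each in the Mt3 and Mt4 windows. Of 32851 RefSeq promoter windows of the same length, 25.7% held at least 1 match, 1.97% held 3 or more and 0.517% held 4 or more. The antioxidant response element (TGAC and GC around any 3 bases) was matched 1 time in Mt2 and not in Mt1 or Mt3, and 12.4% of all windows held it. The GC box (GGGCGG) was matched 3 times in Mt1 and not in Mt2 or Mt3. Of all windows, 35.7% held at least 1 and 10.7% held 3 or more. In Mt1, 1 GC box shares its first base with the last base of the metal response core next to it. Neither the 15-base palindromic consensus of the glucocorticoid response element nor its 6-base arm AGAACA was matched in any of the 4 windows. The palindrome was found in 3 windows of all genes and the arm in 19.0%. The E-box CACGTG was matched in none of the 4 windows and in 7.15% of all. A match is a run of letters and not a bound site, and regions outside these 300 bases were not searched. The RefSeq start used for Mt2, base 94172618, lies ahead of the GENCODE gene start at 94172664, so its window ends close to that start. Other transcript starts of these genes were not used. The counts thus hold for these windows and may leave out elements of the promoters.

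**Figure D1:**
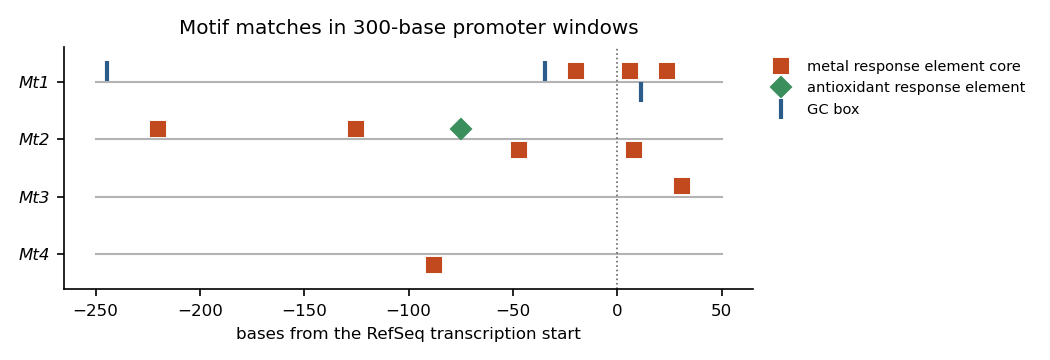
Motif matches in the promoter windows of Mt1, Mt2, Mt3 and Mt4, plotted by distance from the RefSeq transcription start in bases, with 1 row per gene and 1 colour per motif. Within these windows metal response cores are seen 3 times in Mt1 and 4 times in Mt2, on both sides of the RefSeq start used, and 1 time each in Mt3 and Mt4.

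The KO library held 17829 barcodes with 186117981 UMIs and the WT library 11430 barcodes with 168483330 UMIs. The limits on cells set in the study, which were not the same for both genotypes, left 15502 KO cells with a median of 10194.5 UMIs and 9045 WT cells with a median of 15685 UMIs. The libraries shared 75 barcodes, 27 of them among the 24547 cells kept. Cells were clustered without the metallothionein genes, so the members did not shape the classes, and clusters were named from marker genes with the suffix -like. The named classes held 10205 KO and 6793 WT germ-like, 1867 and 862 granulosa-like, 1504 and 766 theca-like, 959 and 360 epithelia-like, 136 and 30 endothelia-like, 53 and 15 perivascular-like, 50 and 29 immune-like, and 53 and 13 erythroid-like cells. A cluster of 675 KO and 177 WT cells with germ markers among the somatic cells stayed unnamed, and Scrublet called 80.1% and 59.3% of it doublets. Nr3c1 was measured first as a check of the labels. Its level was 11.6 counts per 1000000 UMIs (CPM) in KO and 71.9 CPM in WT germ-like cells, a log2 ratio of −2.63, and it was also lower in KO in the 3 largest somatic classes, at log2 ratios of −1.94 in epithelia-like, −1.93 in theca-like and −1.89 in granulosa-like cells. Of the small classes only the perivascular-like one was not lower, with 10 UMIs in KO and 3 in WT (log2 ratio 0.41, −1.55 to 2.91). Counts were made per gene, so the deleted exon itself was not read.

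Mt1 was a transcript of the somatic ovary, with its highest levels in the surface epithelium and in immune cells. In epithelia-like cells, which cover the ovary, Mt1 stood at 1606 CPM in KO (95% interval 1582 to 1630) and 1708 CPM in WT (1676 to 1741). These are exact Poisson intervals on the UMIs summed over a class, and every interval given here covers counting error only. Immune-like cells had 1712 CPM (1603 to 1827) and 1233 CPM (1126 to 1346) from 913 and 494 UMIs. They held germ markers at a median of 19.1% of the germ-like level in KO and 3.80% in WT. Of these cells, 6 in KO and 2 in WT formed a cluster led by Cma1 and Cpa3, with Mt1 at 41.7 and 590 CPM. Granulosa-like cells, the supporting cells of the follicle, had 488 CPM (477 to 499) and 405 CPM (393 to 417). Epithelia-like cells thus had 3.29-fold (3.21 to 3.38) the granulosa-like Mt1 level in KO and 4.22-fold (4.07 to 4.37) in WT. Of these 3 classes, the immune-like and epithelia-like levels of KO had overlapping intervals and the others were apart. Theca-like cells, the stromal lineage, had 20.2 CPM (17.4 to 23.2) in KO and 37.8 CPM (33.7 to 42.3) in WT. Germ-like cells had the lowest Mt1 level of the 8 classes in either library, at 9.08 CPM (8.56 to 9.64) in KO and 5.35 CPM (4.94 to 5.78) in WT, although in WT the endothelia-like and perivascular-like intervals overlapped it. All somatic-like cells together had 74.0-fold (69.7 to 78.7) the germ-like Mt1 level in KO and 114-fold (105 to 123) in WT.

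The small classes rested on few cells. Endothelia-like Mt1 was 90.5 CPM in KO from 126 UMIs and 5.39 CPM in WT from 2 UMIs. The KO endothelia-like cluster also held 20.6% called doublets and germ markers at a median of 22.8% of their germ-like level, against 0 doublets and 1.88% in WT, and the part of these cells in the Mt1 level was not tested. Perivascular-like Mt1 was 75.6 CPM in KO, where 1 cell carried 32 of the 35 UMIs, and 16.2 CPM in WT from 3 UMIs. Erythroid-like Mt1 was 72.5 CPM in KO and 939 CPM in WT, where 1 of 13 cells carried 146 of the 285 UMIs. These erythroid-like clusters held germ markers at a median of 52.9% and 44.8% of the germ-like level. No comparison of genotypes was drawn from these 3 classes.

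Mt2 was, like Mt1, higher in epithelia-like, immune-like and granulosa-like cells than in theca-like or germ-like cells, but its levels were not ordered as those of Mt1. Epithelia-like cells had 463 CPM of Mt2 in KO (450 to 476) and 511 CPM in WT (493 to 529). Immune-like cells had 159 CPM (127 to 197) and 160 CPM (123 to 204), and granulosa-like cells 69.8 CPM (65.7 to 74.1) and 56.7 CPM (52.2 to 61.4). Immune-like cells thus stood well below epithelia-like cells in both libraries, while their Mt1 level had overlapped in KO. In the WT library the erythroid-like level, 214 CPM from 65 UMIs, came second and overlapped the immune-like one. Germ-like cells had 9.32 CPM (8.79 to 9.88) in KO and 12.8 CPM (12.1 to 13.4) in WT, from 1135 and 1539 UMIs. Theca-like cells had 4.34 CPM (3.13 to 5.87) and 11.0 CPM (8.83 to 13.5), below the germ-like level in KO and overlapping it in WT. The somatic-like level was 17.2-fold (16.2 to 18.4) the germ-like level in KO and 11.9-fold (11.2 to 12.6) in WT, a smaller gap than that of Mt1. In the WT library Mt2 gave 0 UMIs in endothelia-like and perivascular-like cells, where a count of 0 allows up to 8.09 and 16.2 CPM (3 counts of the class total).

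Mt3 was a granulosa transcript in these ovaries. Granulosa-like cells had 42.5 CPM of Mt3 in KO (39.4 to 45.9) and 31.5 CPM in WT (28.2 to 35.0), from 670 and 337 UMIs. Epithelia-like cells had 3.81 CPM (2.74 to 5.15) and 5.61 CPM (3.91 to 7.81), which were not told apart from background by the measure given further on. Germ-like cells had 0.80 CPM (0.65 to 0.97) and 0.90 CPM (0.74 to 1.09), and theca-like cells 0.72 CPM (0.29 to 1.49) and 1.71 CPM (0.93 to 2.87). The granulosa-like level was 53.4-fold (43.1 to 66.7) the germ-like level in KO and 34.8-fold (28.0 to 43.6) in WT. Below the granulosa-like level the classes of KO had overlapping intervals from neighbour to neighbour. Immune-like cells, at the top of the Mt1 order in KO, gave 0 Mt3 UMIs in both libraries, which allows up to 5.63 CPM in KO and 7.49 CPM in WT. Mt4 gave 1 UMI in KO and 3 UMIs in WT germ-like cells and 0 in every other named class.

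**Figure D2:**
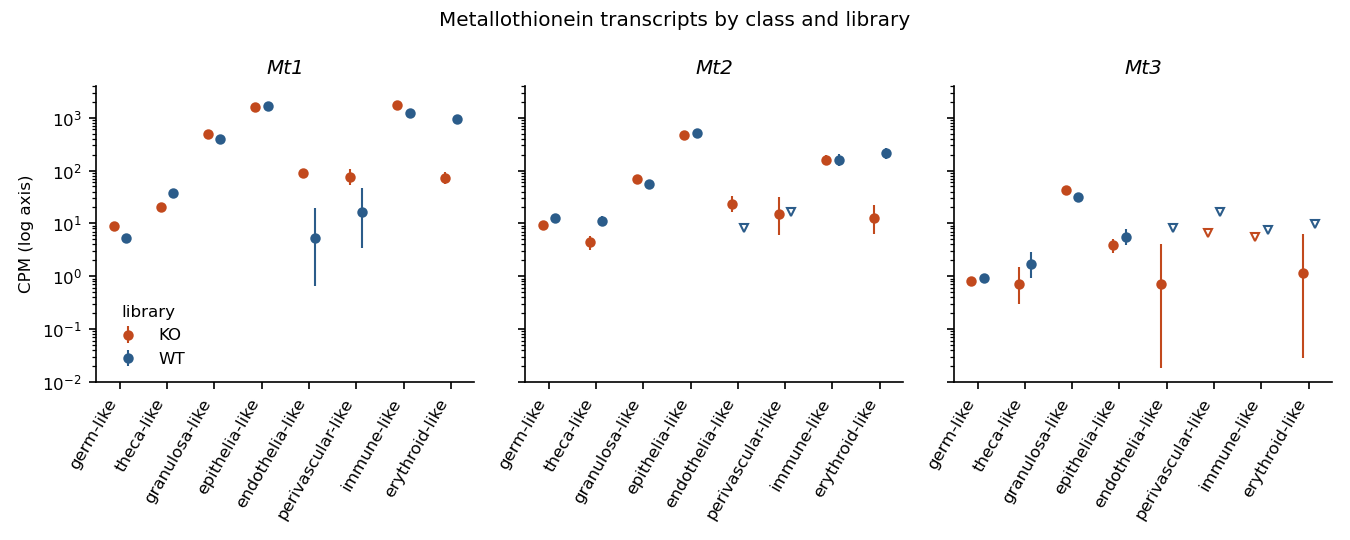
Level of Mt1, Mt2 and Mt3 in CPM on a log axis for the 8 named classes, with 1 point per class and library (KO orange, WT blue) and exact 95% Poisson intervals, and open triangles at the limit of 3 counts where a class gave 0 UMIs. Mt1 and Mt2 stand high in epithelia-like, immune-like and granulosa-like cells, and in the erythroid-like cells of WT at 939 and 214 CPM, and Mt3 stands highest in granulosa-like cells at 42.5 and 31.5 CPM.

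Among epithelia-like, granulosa-like, theca-like and germ-like cells, the share of cells with at least 1 UMI followed the order of the levels for Mt1 and Mt2. Intervals are exact Clopper-Pearson ones. It did not in all small classes, since WT erythroid-like cells had 939 CPM of Mt1 but a share of 38.5%. Mt1 was detected in 90.4% of KO (88.4 to 92.2) and 90% of WT (86.4 to 92.9) epithelia-like cells, 65.6% and 65.8% of granulosa-like cells, 8.64% and 11.9% of theca-like cells, and 8.27% and 7.24% of germ-like cells. Median depths were 10837 and 16593.5 UMIs in epithelia-like and 11317 and 17101 UMIs in germ-like cells, so the low germ-like share did not go with a lower depth. After each cell was thinned to 3000 UMIs, Mt1 was detected in 80.6% and 80.8% of epithelia-like, 48.5% and 43.9% of granulosa-like and 2.54% and 1.47% of germ-like cells. Mt2 was detected in 75.6% and 79.2% of epithelia-like cells, 24.6% and 22.4% of granulosa-like cells and 9.28% (8.72 to 9.86) and 16.3% (15.45 to 17.23) of germ-like cells, and in 2.48% and 3.96% of germ-like cells once thinned. Mt3 was detected in 22.6% and 24.2% of granulosa-like cells and in 0.92% and 1.43% of germ-like cells. At equal depth the WT germ-like share was thus lower than the KO share for Mt1 and higher for Mt2.

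Low levels were set beside the markers of somatic classes in germ-like cells. Not all of these are absent from germ cells, since Crip1 of the epithelia list was among the leading genes of a germ-like cluster. The rates may thus hold expression as well as RNA from other cells, which were not told apart. The granulosa markers stood in germ-like cells at a median of 1.16% of their granulosa-like level in KO and 0.96% in WT, the theca markers at 1.00% and 0.44%, and the epithelia markers at 0.91% and 0.74%, each summed over a class. The median share of germ-like cells with a UMI of a granulosa marker was 5.12% and 5.63%. With Mt1, Mt2 and Mt3 present in germ-like cells at those same percentages of their levels in the 3 somatic classes, Mt1 would stand at 20.4 CPM in KO and 16.7 CPM in WT, Mt2 at 5.05 and 4.38 CPM, and Mt3 at 0.54 and 0.35 CPM. The measured Mt1 levels of 9.08 and 5.35 CPM were below these values, so they were not told apart from background by the medians. The measured Mt2 levels of 9.32 and 12.8 CPM were 1.85 and 2.91 times theirs. The measured Mt3 levels of 0.80 and 0.90 CPM were also above theirs. These values rest on medians of markers that ranged widely, in KO from 0.65% to 7.32% for granulosa, 0.28% to 114% for theca and 0.31% to 33.7% for epithelia markers. At the lowest rate of each list Mt1 would stand at 8.15 and 5.14 CPM, and at the highest Mt2 would stand at 166 and 157 CPM and Mt3 at 5.22 and 5.85 CPM. A highest rate of 114% means a marker at least as high in germ-like as in theca-like cells, so the upper end could hardly be exceeded and decides nothing. The range of markers thus neither set the 3 germ-like levels apart from background nor showed them to be background. In theca-like cells the same reckoning gave 35.3 and 46.7 CPM for Mt1, 7.39 and 10.1 CPM for Mt2 and 1.87 and 2.24 CPM for Mt3. The measured levels were lower in all but Mt2 of WT, whose interval includes 10.1 CPM. By the medians the 3 members were thus not told apart from background. At the lowest rates Mt1 would stand at 15.8 and 23.4 CPM, Mt2 at 3.46 and 4.82 CPM and Mt3 at 0.80 and 1.30 CPM. The measured levels were above these in all but Mt3 of KO, so the range of markers did not settle whether they were background.

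By the medians the same reckoning lay below most of the somatic peaks. It gave 214 and 158 CPM for Mt1 and 31.2 and 23.5 CPM for Mt2 in epithelia-like cells, and 96.4 and 79.2 CPM for Mt1 in immune-like cells, all far below the measured levels. For Mt3 in epithelia-like cells it gave 18.4 and 12.1 CPM, above the measured 3.81 and 5.61 CPM. The granulosa markers behind this stood at a median of 42.9% and 37.2% of their source level, with a UMI in a median of 66.4% and 76.8% of cells. Whether epithelia-like cells express them was not tested. At the lowest rates Mt3 would stand at 2.39 and 1.43 CPM, below the measured levels, so it was not told apart from background. In granulosa-like cells the reckoning gave 183 and 196 CPM for Mt1, below the measured 488 and 405 CPM. For Mt3 it gave 0.51 and 0.72 CPM there, below the measured 42.5 and 31.5 CPM. For Mt2 it gave 52.8 and 59.0 CPM in granulosa-like cells, under the measured 69.8 CPM in KO but over the measured 56.7 CPM in WT. The epithelia markers behind these values stood at a median of 11.3% and 11.4% of their source level in granulosa-like cells and ranged up to 136% and 122%. Mt2 of the WT granulosa-like class was therefore not told apart from background by this measure. At the highest rate of each list the reckoning stayed under the measured level for Mt1 in epithelia-like cells (595 and 478 CPM), Mt2 in epithelia-like cells (87.0 and 69.0 CPM) and Mt3 in granulosa-like cells (6.27 and 7.06 CPM), and exceeded it for Mt1 and Mt2 in granulosa-like and immune-like cells. In endothelia-like and perivascular-like cells of KO it gave 82.9 and 105 CPM for Mt1, beside measured levels of 90.5 and 75.6 CPM.

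RNA that comes from 1 source keeps its genes in 1 ratio, so the UMIs of Mt2 were taken as a percentage of those of Mt1 and Mt2 together. The annotated exons of the first transcripts sum to 549 bases for Mt1 and 511 bases for Mt2, and 3′ counting gives 1 UMI per captured transcript whatever its length. The percentage was 12.5% (11.8 to 13.2) in KO and 12.3% (11.4 to 13.2) in WT granulosa-like cells, and 22.4% (21.8 to 22.9) and 23.0% (22.3 to 23.7) in epithelia-like cells. Immune-like cells had 8.52% (6.86 to 10.4) and 11.5% (8.95 to 14.4). These percentages overlapped between the libraries within each class. The epithelia-like interval lay above the other 2, and the immune-like interval lay below the granulosa-like one in KO and contained it in WT. Germ-like cells had 50.6% (48.6 to 52.7) in KO and 70.5% (68.5 to 72.4) in WT, above all somatic-like cells together at 19.3% and 19.97% and apart from each other. With doublets left out the germ-like percentages were 55.0% and 74.1%, and after thinning they were 47.4% and 72.6%. Since Mt1 in germ-like cells was not told apart from background by the medians, this ratio sets a germ-like Mt2 count against a count that may hold background.

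**Figure D3:**
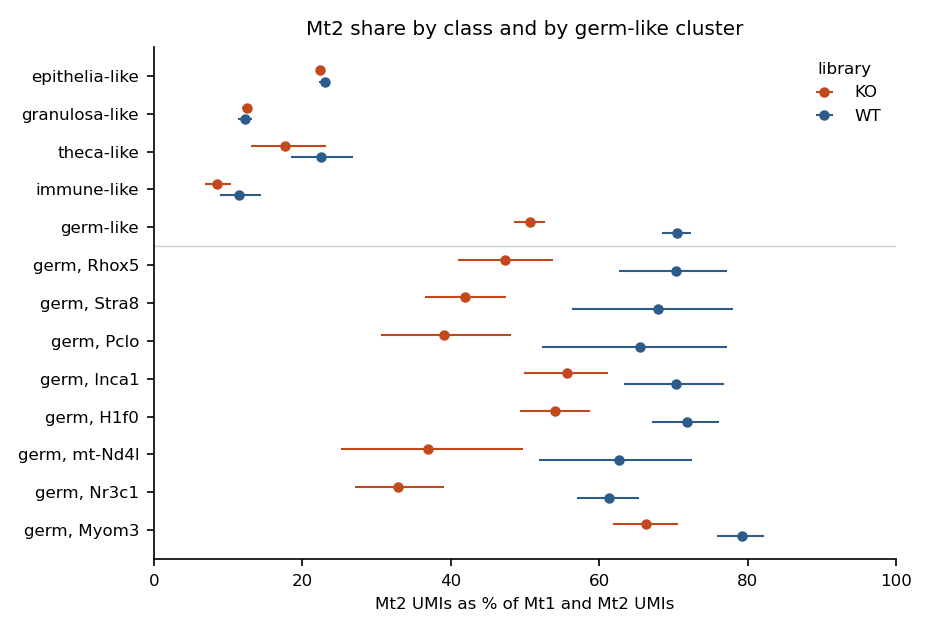
Mt2 UMIs as a percentage of Mt1 and Mt2 UMIs, by class and by germ-like cluster, in KO (orange) and WT (blue), with exact 95% binomial intervals. The germ-like percentages of 50.6% and 70.5% lie above the somatic classes, and the KO percentage is the lower one in all 8 germ-like clusters.

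Cells rich in Mt1 were also rich in Mt2 in the epithelia-like, granulosa-like and immune-like classes. Over single cells, Pearson's r between Mt1 and Mt2 on the ln(CP10k + 1) scale, where CP10k stands for UMIs of a gene per 10000 UMIs of the cell, was 0.81 in 959 KO and 0.87 in 360 WT epithelia-like cells, 0.58 and 0.62 in 1867 and 862 granulosa-like cells, and 0.70 and 0.73 in 50 and 29 immune-like cells. In theca-like cells it was 0.11 over 1504 KO and 0.44 over 766 WT cells. In epithelia-like cells with Mt1, 82.7% in KO and 87.3% in WT also had Mt2, against 8.70% and 5.56% of those without Mt1. In germ-like cells r was 0.07 in both libraries over 10205 and 6793 cells, in counts of mostly 0. Mt1 and Mt3 gave 0.02 and 0.06 in granulosa-like cells, where both were detected in many cells. These are descriptions over cells of 1 library, which share depth and capture. The germ-like cells with 2 or more Mt1 UMIs, 83 in KO and 51 in WT, held 34.9% and 25.5% called doublets, against 3.37% and 1.45% of the other germ-like cells. Their granulosa markers summed to 556 and 386 CPM, against 34.9 and 33.0 CPM in the rest. The germ-like cells with 2 or more Mt2 UMIs, 123 in KO and 250 in WT, held 8.94% and 2.00% doublets against 3.56% and 1.62% of the rest. Their granulosa markers summed to 104 and 53.7 CPM, against 39.7 and 35.7 CPM in the rest, and their epithelia markers to 130 and 66.4 CPM against 55.9 and 48.4 CPM. The part of these cells in the germ-like levels was not tested beyond leaving doublets out.

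The members divided the granulosa-like class among its clusters, which are described here by a leading gene. The Ly6d cluster (819 KO and 553 WT cells) had the most Mt1, at 705 and 537 CPM, and the most Mt2, at 117 and 79.5 CPM. The Prlr cluster (752 and 116 cells) had 338 and 169 CPM of Mt1, 33.8 and 13.9 CPM of Mt2 and the most Mt3, at 62.0 and 54.8 CPM. The Ramp1 cluster (296 and 193 cells) had the least Mt1 and Mt2, at 143 and 78.5 CPM and at 6.27 and 2.07 CPM, and Mt3 at 27.2 and 9.29 CPM. Mt1 and Mt2 were among the 10 leading genes of the Ly6d cluster and Mt3 among those of the Prlr cluster, although none of them was used to cluster. In epithelia-like cells the Cdkn1a cluster had 1726 and 1904 CPM of Mt1, with 96.5% and 97.9% of cells positive. The Nusap1 cluster, led by mitotic genes, had 1241 and 1102 CPM, with 68.9% and 61.5% positive. The epithelial cluster led by the cell cycle inhibitor Cdkn1a thus had more Mt1 than the dividing one in both libraries.

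Among germ-like clusters Mt2 was highest in the Myom3 cluster, at 14.3 CPM in KO (12.7 to 16.0) and 20.02 CPM in WT (18.3 to 21.8). The Nr3c1 cluster overlapped it in KO at 12.5 CPM, and the Rhox5 cluster in both libraries at 10.8 CPM (8.90 to 12.9) and 16.0 CPM (13.2 to 19.2). The name Nr3c1 does not mark a state rich in the receptor, since this cluster held 272 KO and 931 WT cells. Within WT its Nr3c1 level of 75.9 CPM was below the 80.0 CPM of the Stra8 cluster. In the Myom3 cluster the 6 later prophase genes stood at a median of 74.6% and 91.1% of their highest cluster, and the 4 meiotic entry genes at 16.7% and 13.3%, the lowest of the 8 clusters. The Stra8 cluster, where the 4 entry genes stood at 70.1% and 64.0% and the 5 recombination genes at 97.5% and 81.8%, had 5.85 and 7.31 CPM of Mt2, the lowest level of the 8 clusters in each library, with intervals that overlapped other low clusters. The Rhox5 cluster had the mitotic and pluripotent genes at their highest and the entry genes at 87.4% and 83.3%. Mt2 was thus not ordered along the stage lists from one end to the other. Mt3 was highest in the Rhox5 cluster, at 2.82 CPM (1.92 to 4.01) and 4.49 CPM (3.07 to 6.34), and next highest in the Stra8 cluster at 1.19 and 2.62 CPM. Mt1 was highest in the Nr3c1 cluster, at 25.4 CPM in KO and 7.95 CPM in WT, where Scrublet called 19.9% and 6.34% of cells doublets. The level rested on few cells, since 3 of 272 KO cells held 55.7% of the 167 Mt1 UMIs and 8 of 931 WT cells held at least 50% of the 211 UMIs.

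**Figure D4:**
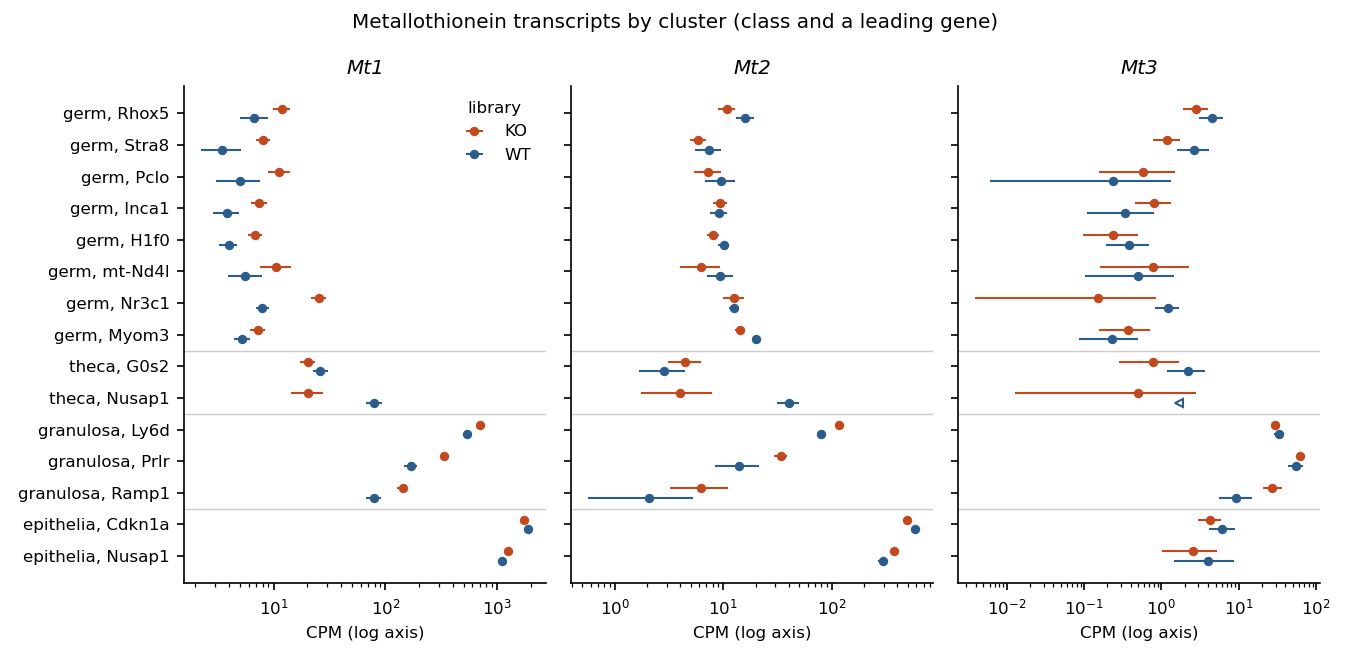
Level of Mt1, Mt2 and Mt3 in CPM on a log axis for the clusters of the main classes, each named by its class and a leading gene, in KO (orange) and WT (blue), with exact 95% Poisson intervals and open triangles at the limit of 3 counts where a cluster gave 0 UMIs. Mt1 and Mt2 peak in the epithelia-like Cdkn1a cluster and Mt3 in the granulosa-like Prlr cluster at 62.0 and 54.8 CPM.

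The loss of GR was then set against the metallothionein levels, since GR is an inducer of Mt1 and Mt2. In germ-like cells the log2 ratio of KO over WT was 0.76 for Mt1 (0.62 to 0.91), −0.45 for Mt2 (−0.57 to −0.34) and −0.18 for Mt3 (−0.59 to 0.23). Mt1 was higher and Mt2 lower in KO beyond counting error, and the Mt1 values had not been told apart from background by the medians of the markers. Of the 13802 genes with at least 100 UMIs, 57.1% also had an interval that left out 0, and the middle 95% of their log2 ratios ran from −0.66 to 0.51. By size, with a limit of 0.25 on the difference in ln(CP10k + 1), 24 genes or 0.174% were past the limit. A gene can fall past it only from a WT level of at least 28.4 CPM, which 4521 of the 13802 genes had and the 3 members did not, so this limit says nothing of a lower level of a member in germ-like cells. In granulosa-like cells the log2 ratio was 0.27 for Mt1 (0.22 to 0.32), 0.30 for Mt2 (0.16 to 0.45) and 0.43 for Mt3 (0.24 to 0.63), all 3 higher in KO and none past the limit, which 0.283% of 10592 genes passed. Of those genes 21.2% had an interval that left out 0. In epithelia-like cells it was −0.09 for Mt1 (−0.12 to −0.05) and −0.14 for Mt2 (−0.21 to −0.08), with neither past the limit, which 0.244% of 9425 genes passed, and 14.8% of these genes had an interval that left out 0. Mt3 had 42 and 35 UMIs there and was not counted. The ratios of the granulosa-like and epithelia-like classes lay inside the middle 95% of all genes of their class. Mt1 of germ-like cells lay above that range, and Mt2 of germ-like cells inside it.

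In theca-like cells Mt1 and Mt2 were lower in KO, at a log2 ratio of −0.91 (−1.17 to −0.64) and −1.34 (−1.90 to −0.79), from 195 and 310 UMIs of Mt1 and 42 and 90 UMIs of Mt2. An interval that left out 0 was found for 15.6% of the 9710 genes. Mt1 was not past the size limit, which 0.165% of genes passed, and the WT level of Mt2 was too low to fall past it. By the medians of the markers neither level had been told apart from background, though both lay above the values at the lowest rates. The WT library had 52 Mt1 UMIs and 31 Mt2 UMIs in its top cell of each gene. With the 5 cells richest in each gene left out of each library, the log2 ratio was −0.37 for Mt1 and 0.43 for Mt2, so the direction of Mt2 rested on those cells. With the same limits on cells in both libraries the ratios were 0.36 and 0.25, so neither direction held. By theca-like cluster, Mt1 was −0.38 in the G0s2 cluster (1274 KO and 635 WT cells) and −1.97 in the Nusap1 cluster (230 and 131 cells). Mt2 was 0.65 (−0.21 to 1.56) in the G0s2 cluster, and the Nusap1 cluster held 8 and 72 UMIs of it. In immune-like cells the log2 ratio was 0.47 for Mt1 (0.31 to 0.64) and 0.00 for Mt2 (−0.49 to 0.49), over 50 and 29 cells. In the WT library 1 cell held 36 of the 64 Mt2 UMIs. With the 5 cells richest in each gene left out the ratios were 1.43 and 1.499, and with the top 1% of cells by Mt1 and Mt2 left out they were 0.65 and 1.07, so their size rested on single cells. Mt1 was past the limit there, as were 20.7% of the 1309 genes.

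**Figure D5:**
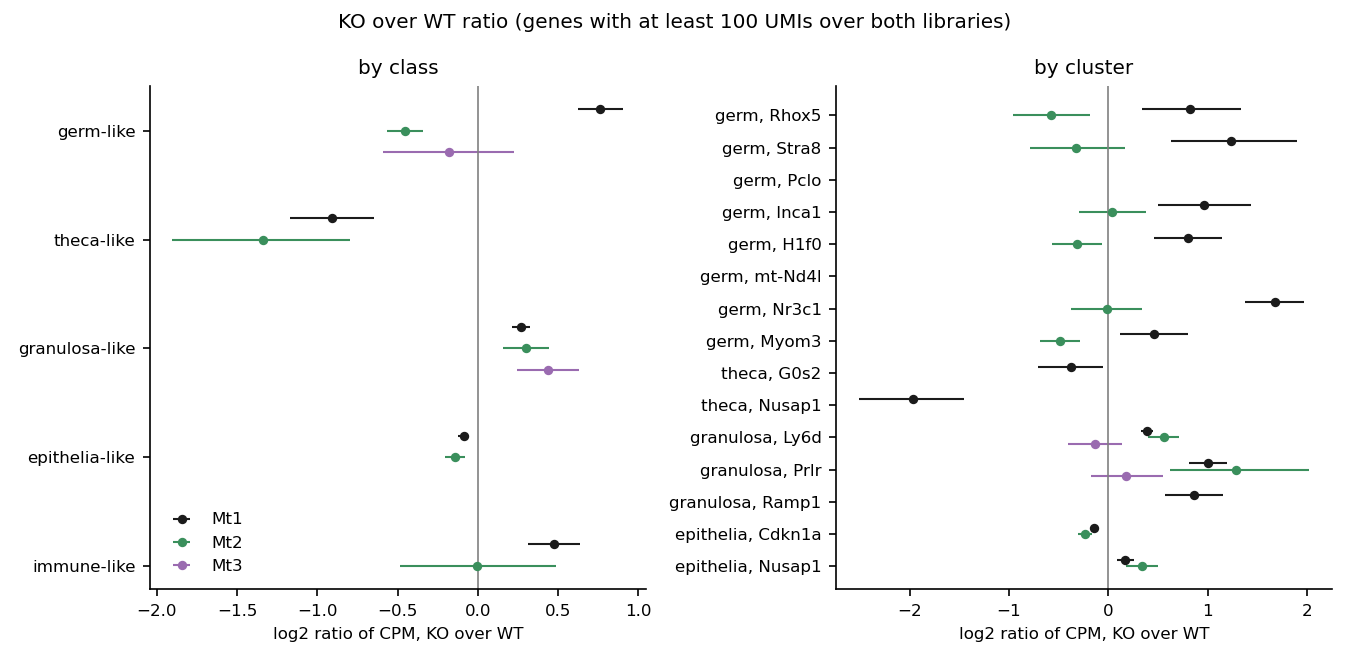
Log2 ratio of CPM of KO over WT for Mt1 (black), Mt2 (green) and Mt3 (purple), by class on the left and by cluster on the right, with exact 95% intervals for counting error, for genes with at least 100 UMIs over both libraries. Mt1 lies right of 0 in the germ-like class at 0.76 and in its clusters, and Mt2 lies left of 0 in the germ-like class at −0.45.

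Within germ-like clusters the directions were repeated. Mt1 was higher in KO in 8 of 8 clusters, with 8 intervals above 0, and Mt2 was lower in 7 of 8, with 3 intervals below 0. In the whole germ-like class 57.1% of genes had an interval that left out 0. How many genes kept 1 direction in all 8 clusters was not counted, so these counts are not set apart from those of other genes. The smallest Mt1 log2 ratio was 0.46 in the Myom3 cluster and the largest 1.67 in the Nr3c1 cluster, which became 0.86 (0.38 to 1.33) with the 5 cells richest in Mt1 left out of each library. With the 5 richest cells left out of every cluster, an alternative chosen after seeing the data, Mt1 was still higher in KO in 8 of 8 clusters with 8 intervals above 0, and Mt2 lower in 7 of 8 with 4 intervals below 0. The Mt2 percentage of Mt1 and Mt2 UMIs was lower in KO in 8 of 8 clusters, from 66.4% against 79.2% in the Myom3 cluster to 32.9% against 61.3% in the Nr3c1 cluster. That percentage restates the same counts of Mt1 and Mt2. These clusters come from the same pair of libraries and are not replicates. Mt3 was higher in KO in 4 clusters and lower in 4, with 2 intervals below 0.

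Within the granulosa-like clusters Mt1 was higher in KO in each, at a log2 ratio of 0.39 in the Ly6d, 1.00 in the Prlr and 0.86 in the Ramp1 cluster. Mt2 was higher at 0.56 in the Ly6d and 1.29 in the Prlr cluster, and the Ramp1 cluster held 12 and 4 UMIs. Mt3 had a log2 ratio of −0.14 (interval from −0.41) in the Ly6d cluster and 0.18 (from −0.17) in the Prlr cluster, neither beyond counting error, and 1.55 in the Ramp1 cluster. The libraries differed in their mix of these clusters, with 116 of 862 WT cells and 752 of 1867 KO cells in the Prlr cluster. With clusters weighted alike in both libraries, the granulosa-like log2 ratio was 0.53 for Mt1, 0.66 for Mt2 and 0.15 for Mt3. The higher Mt3 level of the KO class was thus smaller, and the higher Mt1 and Mt2 levels larger, once the mix was held equal. In epithelia-like cells Mt1 was lower in KO in the Cdkn1a cluster, at −0.14, and higher in the Nusap1 cluster, at 0.17.

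The other genes of metal handling were counted by list, with the size limit as before. Of 19 further zinc genes (the factor Mtf1 and the transporters of the Slc30a and Slc39a families), 17 had 100 UMIs in germ-like and 17 in somatic-like cells, and 0 were past the limit in either direction, although only 5 and 2 of them had a WT level from which a fall could pass it. Their median log2 ratio was −0.06 and 0.02, beside −0.05 and −0.01 over all genes. In germ-like cells the lowest log2 ratios of the list were those of Slc30a1 and Slc30a4 (−0.33) and the highest those of Slc39a4 (0.42) and Slc39a10 (0.35). In somatic-like cells the lowest were Slc30a7 (−0.30) and Slc39a1 (−0.22) and the highest Slc30a1 and Slc39a11 (0.16). Slc30a proteins carry zinc out of the cytosol and Slc39a proteins carry it in. The zinc exporter Slc30a1, a target of MTF1 like Mt1 and Mt2, had 10.5 CPM in KO and 13.5 CPM in WT germ-like cells (log2 ratio −0.37) and 6.62 and 5.79 CPM in somatic-like cells (0.19). Of the 11 genes of copper handling, 11 and 10 had 100 UMIs, 5 and 5 could fall past the limit and 0 were past it, with medians of 0.02 and −0.01. Their log2 ratios ran from −0.35 for Atp7b to 0.23 for Ccs in germ-like cells, and from −0.14 for Atp7a to 0.22 for Sco1 in somatic-like cells. Of the 12 genes of glutathione metabolism and the NRF2 response, 10 and 11 were counted, 3 and 6 could fall past the limit and 0 were past it, with medians of −0.11 and −0.05. Hmox1, heme oxygenase, had 41.3 CPM in KO and 53.8 CPM in WT somatic-like cells (−0.38).

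Of the 6 other glucocorticoid-responsive genes 5 were counted, with a median log2 ratio of −0.03 in germ-like and −0.04 in somatic-like cells. None was past the limit, but only 1 of them in germ-like and 2 in somatic-like cells had a WT level from which a fall could pass it. Fkbp5, a co-chaperone of GR, had 67.4 CPM in KO and 66.9 CPM in WT somatic-like cells, and Tsc22d3, which encodes GILZ, had 183 and 175 CPM in germ-like cells. Klf9 had 1.63 CPM in KO and 2.44 CPM in WT germ-like cells, a log2 ratio of −0.58 (−0.84 to −0.31), at a level too low for the limit. Of the 17 immediate early genes, which also mark dissociation, Junb was past the limit in somatic-like cells, at 222 CPM in KO and 334 CPM in WT, a share of 1 of 17 beside 0.221% of all genes. Their median log2 ratio was −0.20 in somatic-like cells, where Mt1 and Mt2 stood at 0.14 and 0.08, and −0.33 in theca-like cells, and their part in the metallothionein values was not tested. The 10 cell cycle genes had 0 past the limit in the 4 main classes, where 8 could fall past it in germ-like, 3 in granulosa-like and 10 in each of theca-like and epithelia-like cells, and in granulosa-like cells the 7 counted had a median log2 ratio of 0.39.

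The genes whose levels went most like those of Mt1 were sought over the 8 classes in both libraries, 16 levels in all, among 13800 genes, by Pearson's r of log2(CPM + 1). Mt2 came first for Mt1 at 0.91, followed by the tubulin gene Tuba1c at 0.88 and by Runx1, Susd1 and Fabp3 at 0.86 each. For Mt2 they were Mt1 at 0.91, Susd1 at 0.89, Cited4 and Fabp3 at 0.87 each, and Shtn1 at 0.86. Mt3 had r of 0.32 with Mt1 and 0.34 with Mt2. Its own list was added after values were seen and held Atp2b3 at 0.98 and B230208H11Rik, Rilp, Cyp4f15 and Rhox8 at 0.97 each. Rhox8, a homeobox gene, had 69.4 CPM in KO and 69.4 CPM in WT granulosa-like cells and 0 in immune-like cells. The 16 levels share 2 libraries, so these values describe the order of classes and carry no test.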

How the data were processed

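Single-cell RNA-seq was measured in 1 KO and 1 WT library. The authors deposited UMI counts, 1 whole number for each gene and barcode with no normalization, which they made with Cell Ranger 3.0.2 per the file headers. The submitters' processing notes name mm10, and the gene annotation is not given in the sources used here. The study's limits were applied to cells: 1200 to 5500 genes and 3000 to 30000 UMIs for KO, 1500 to 6500 genes and 5500 to 40000 UMIs for WT, and under 10% mitochondrial UMIs.

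Cells of both libraries were clustered with scanpy 1.11.5 (2000 variable genes without Mt1, Mt2, Mt3 and Mt4, 30 principal components, 20 neighbours, Leiden resolution 0.5). A cluster was named when at least 3 markers were detected in 10% of its cells at over 2-fold the level of other classes and its 10 leading genes held no more markers of another class than of its own. Cells not first guessed as germ were clustered again by themselves, and a cluster guessed as germ among them was left unnamed. That clause alone kept out the cluster of 675 KO and 177 WT cells, which passed 7 germ markers. This form of the rule was set after the clusters were seen, and classes may differ from those named in the study. No cell was removed as a doublet, and Scrublet calls at an expected rate of 8% were left out as an alternative.

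UMIs were summed per class and library and scaled to CPM. Exact Poisson, conditional and Clopper-Pearson intervals of 95% were computed with scipy 1.17.1. Thinning to 3000 UMIs left out 0 cells. The counting code was checked on simulated counts. Members, lists and motifs were chosen with earlier results of these data known. Genes were named by rule: Mt1 to Mt4, Nr3c1, the 2 highest and 2 lowest log2 ratios of a list, and the 5 genes most like Mt1 and Mt2. Promoter sequences are those of RefSeq, and all 4 genes were matched by symbol.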

Additional observations from a re-analysis of the deposited data

Results flagged for a closer look

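The KO over WT difference went in opposite directions in different classes, and the difference between classes was not tested, since each genotype is 1 library. The log2 ratio of Mt1 was 0.76 in germ-like and 0.27 in granulosa-like cells, but −0.91 in the theca-like and −0.089 in the epithelia-like class. That of Mt2 was 0.30 in granulosa-like cells, but −0.14 in the epithelia-like, −0.45 in the germ-like and −1.34 in the theca-like class. Over other settings the theca-like ratios ran from −1.07 to 0.36 for Mt1 and from −1.73 to 0.43 for Mt2, so neither direction held. Epithelia-like Mt1 ran from −0.16 to −0.016, and was −0.14 in the Cdkn1a and 0.17 in the Nusap1 cluster. Mt1 in germ-like cells and both genes in theca-like cells were at levels not told apart from background by the medians of marker genes.

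The unnamed cluster, which entered no comparison, held all 3 members above the germ-like level. Mt1 stood there at 234 CPM in KO and 317 CPM in WT, Mt2 at 62.7 and 92.9 CPM, and Mt3 at 6.47 and 8.09 CPM. Scrublet called 80.1% and 59.3% of its cells doublets, and their part in these levels was not tested.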

How the results depend on the processing

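No paired analysis was possible because each genotype is 1 library, and for the same reason no replicate could be left out. Of 192 log2 ratios recomputed under other settings, 131 stayed within the counting interval of the main ratio, 56 moved outside it, and 5 were counted as reversed. All 5 were theca-like ratios whose main interval left out 0. A change of sign was not counted as a reversal where the main interval included 0. Germ-like Mt3, at −0.18, thus became 0.206 thinned and 0.14 with the same limits on cells. Immune-like Mt2, at −0.0025, ran from −0.20 to 1.499. Weighting clusters alike, leaving out the 5 richest cells (also within germ-like clusters) and the settings of the Mt2 percentage were chosen after seeing the data. The germ-like Mt1 ratio stayed between 0.60 (Leiden resolution 1.0) and 0.97 (clusters weighted alike), and that of Mt2 between −0.72 (thinned) and −0.34. In granulosa-like cells Mt1 was 0.32 thinned, 0.36 with the same limits on cells, 0.53 with clusters weighted alike and 0.34 without the 5 richest cells. Mt2 was 0.15 with the family kept for clustering, 0.66 with clusters weighted alike and 0.48 without the 5 richest cells, and Mt3 was 0.15 with clusters weighted alike. The theca-like Mt1 ratio moved to −0.13 (thinned), −0.39 (mean over cells), −0.18 (Leiden resolution 1.0), −0.42 (top 1% of cells out) and −0.37 (5 richest cells out), and reversed to 0.36 with the same limits. The theca-like Mt2 ratio moved to −0.39 (mean over cells) and −0.52 (Leiden resolution 1.0), and reversed to 0.11 (thinned), 0.25 (same limits), 0.36 (top 1% of cells out) and 0.43 (5 richest cells out). In epithelia-like cells Mt1 was −0.14 thinned, −0.16 with the same limits, −0.14 at Leiden resolution 1.0 and −0.016 without the 5 richest cells, and Mt2 was −0.050 thinned and −0.23 with the same limits. The cause of these moves was not tested.

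The log2 ratio of somatic-like over germ-like levels in KO was 6.21 for Mt1 and became 5.88 thinned, 5.94 as a mean over cells, 6.38 with the same limits, 6.52 without doublets, 6.36 with the family kept and 6.40 at Leiden resolution 1.0. For Mt2 in KO it was 4.11 and became 3.84, 3.77 and 4.25 under the first 3 of these settings. In WT it was 6.83 for Mt1 and became 6.54 thinned, 6.58 as a mean over cells and 7.11 without doublets, and for Mt2 it was 3.57 and became 2.94 and 3.18 under thinning and the mean over cells. At a size limit of 0.5 the genes past it numbered 0 in the germ-like and 7 in the granulosa-like class, and 3 in each of the theca-like and epithelia-like classes. The germ-like Mt2 percentage in KO and WT was 47.4% and 72.6% thinned, 55.0% and 74.1% without doublets, 52.9% and 69.3% by cells with a UMI, and 52.0% and 67.5% without cells of over 1 UMI of either gene. It was lower in KO under each of these 4 settings.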
